A study of Bos taurus with 48 samples.

Results

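SERPINA5 (ENSBTAG00000004063) and BAIAP2L1 (ENSBTAG00000019181) were followed in subcutaneous adipose tissue of Norwegian Red heifers, as 2 of the 24616 genes in the count files. Both were chosen because they stand, with higher expression at the high energy level, in the study's lists of genes that differed between energy levels at 12 months of age, at low and at high dietary protein. Their energy differences at 12 months are therefore a description of how they were picked and are given without a test. The biopsies of month 7 of gestation and the contrasts of protein level and genetic group were not used for the choice. The change over time was not a criterion either, but it includes the 12-month samples in which the genes were picked. The experiment held 24 heifers, each biopsied 2 times, which gave 48 RNA-seq samples. From 3 months of age the heifers received 1 of 4 diets with 6 heifers each, named by protein (LP, HP) and energy (LE, HE): LPHE, LPLE, HPHE and HPLE, where L and H stand for low and high. Each diet had 3 heifers of the high milk-yield genetic group (HMY) and 3 of the group with a low occurrence of clinical mastitis (LCM). The first biopsy was taken at 12 months of age, while the diets were fed. The second was taken in month 7 of gestation, at 20 to 24 months of age, when every heifer was pregnant and had been moved, at day 28 to 42 of gestation, from its own diet to a shared low-energy feed. Breeding was set at 400 kg body weight, which high-energy (HE) heifers reached at a younger age than low-energy (LE) heifers. At the second biopsy the earlier energy level and the age of the heifer therefore cannot be told apart.

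SERPINA5 encodes the protein C inhibitor, a secreted serine protease inhibitor of the serpin family that binds heparin. A serpin offers its reactive loop to a protease as bait and traps the enzyme in a covalent complex. The proteases known to be inhibited by SERPINA5 include activated protein C, thrombin and the plasminogen activators, which control clotting and the breakdown of fibrin. BAIAP2L1, also called IRTKS for insulin receptor tyrosine kinase substrate, is an intracellular adaptor with a membrane-bending I-BAR domain and an SH3 domain. It links small GTPases and actin regulators to curved plasma membrane, and it is phosphorylated by the insulin receptor. Adipose tissue is a main target of insulin, which drives lipid storage there when energy intake is high. In the RefSeq annotation of the ARS-UCD2.0 assembly, SERPINA5 lies among other clade A serpins, between SERPINA4 and SERPINA3-8, and BAIAP2L1 lies between NPTX2 and BRI3. No position is given here because the reads were aligned to another assembly, UMD3.1.

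Between 14815595 and 59809633 reads per sample were counted on genes at 12 months (median 32166717), and between 22430093 and 61027456 in month 7 of gestation (median 43293433). SERPINA5 received from 161 to 4653 reads per sample and BAIAP2L1 from 40 to 1149, so both were detected in all 48 samples. None of the 120 pairs of samples within a group agreed within sampling noise over all genes (chi-square per degree of freedom 43.5 or more). No library was thus counted 2 times within a group. The check did not cover pairs of samples from different groups. Each diet holds 6 separate animals. Levels are given as CPM, the count scaled to a fixed library total, after TMM normalization over the 48 samples. They allow 1 gene to be compared between samples, not SERPINA5 with BAIAP2L1, since they are not divided by transcript length. In whole tissue a change in the share of a cell type cannot be told apart from a change of RNA per cell.

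At 12 months SERPINA5 was higher in HE than in LE heifers at both protein levels. In LPHE heifers its lowest, median and highest levels were 22.004, 30.3 and 89.2 CPM. LPLE heifers had 7.59, 13.2 and 24.0 CPM. All but 1 of the LPLE heifers lay below the whole LPHE group, and 4 of the 6 LPHE heifers lay above the whole LPLE group. At high protein, HPHE heifers had 22.8, 58.3 and 228 CPM, whereas HPLE heifers had 11.8, 14.2 and 31.0 CPM. Here 5 of the 6 HPHE heifers exceeded every HPLE heifer. The group means were 43.6 ± 27.9 CPM (LPHE), 14.1 ± 5.58 CPM (LPLE), 83.5 ± 75.3 CPM (HPHE) and 18.1 ± 8.14 CPM (HPLE), each with its SD over 6 heifers, so the heifers of the HE diets also varied most among themselves. The fitted log2 fold change was 1.56 (SE 0.417) for LPHE-LPLE and 2.30 (SE 0.430) for HPHE-HPLE. A single HPHE heifer, number 19, reached 228 CPM, while the next highest had 97.2 CPM. Without heifer 19 the HPHE mean was 54.7 ± 29.0 CPM (SD, n = 5) and the log2 fold change of HPHE-HPLE was 1.57, that is 2.96-fold in place of 4.93-fold.

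**Figure D1:**
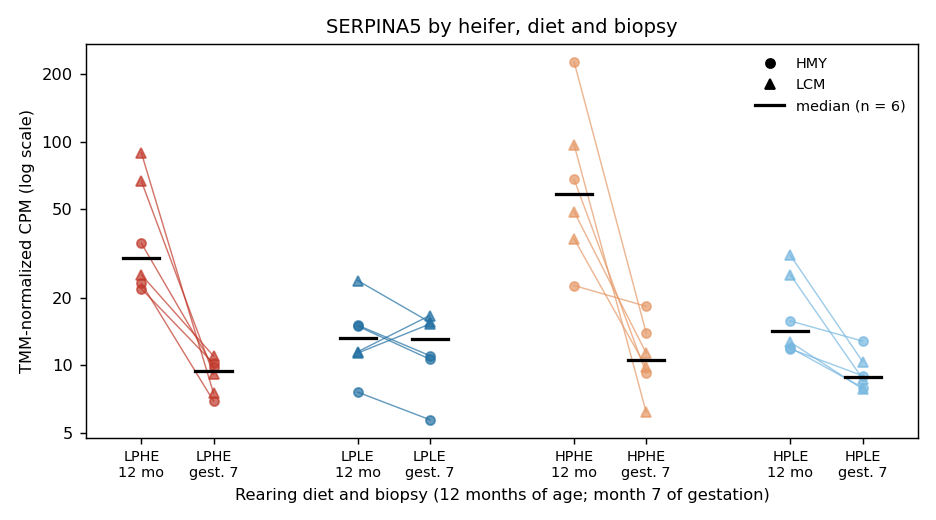
TMM-normalized CPM of SERPINA5 on a log scale for each heifer, by diet and biopsy. Lines join the 2 biopsies of a heifer, circles are HMY and triangles LCM heifers, and black bars are medians of 6 heifers. The HE diets start at medians of 30.3 and 58.3 CPM, and in month 7 the 4 medians lie between 8.86 and 13.2 CPM.

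BAIAP2L1 was also higher in HE heifers at 12 months. LPHE heifers had a lowest level of 5.88, a median of 15.6 and a highest level of 27.4 CPM, and LPLE heifers had 2.003, 4.78 and 5.32 CPM. The groups did not overlap, in a contrast by which the gene was picked. The share of all genes without overlap is not given here, so nothing is read from this separation. HPHE heifers had 7.64, 18.3 and 23.5 CPM and HPLE heifers 2.21, 6.02 and 9.41 CPM, with only the lowest HPHE heifer inside the range of the HPLE group. The means were 15.5 ± 7.95 CPM (LPHE), 4.28 ± 1.33 CPM (LPLE), 16.6 ± 6.01 CPM (HPHE) and 6.38 ± 2.74 CPM (HPLE), each with its SD over 6 heifers. Log2 fold changes were 1.77 (SE 0.347) for LPHE-LPLE and 1.40 (SE 0.342) for HPHE-HPLE. Within LPHE the LCM heifers, with 17.3 to 27.4 CPM, lay above the HMY heifers, with 5.88 to 13.9 CPM (n = 3 each). This split by genetic group was not seen within the HPHE diet, where HMY heifers ranged from 11.3 to 23.5 CPM and LCM heifers from 7.64 to 19.8 CPM. The split was not tested within a diet, and so few heifers can separate by chance. Over all diets the genetic groups gave no call for BAIAP2L1 at 12 months (edgeR likelihood ratio test, FDR 0.647). Among all genes tested at 12 months, 7.08% passed an FDR (false discovery rate) of 0.1 in LPHE-LPLE and 0.12% did in HPHE-HPLE. Both genes were taken from the lists of these contrasts, so nothing is read from their place among them.

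**Figure D2:**
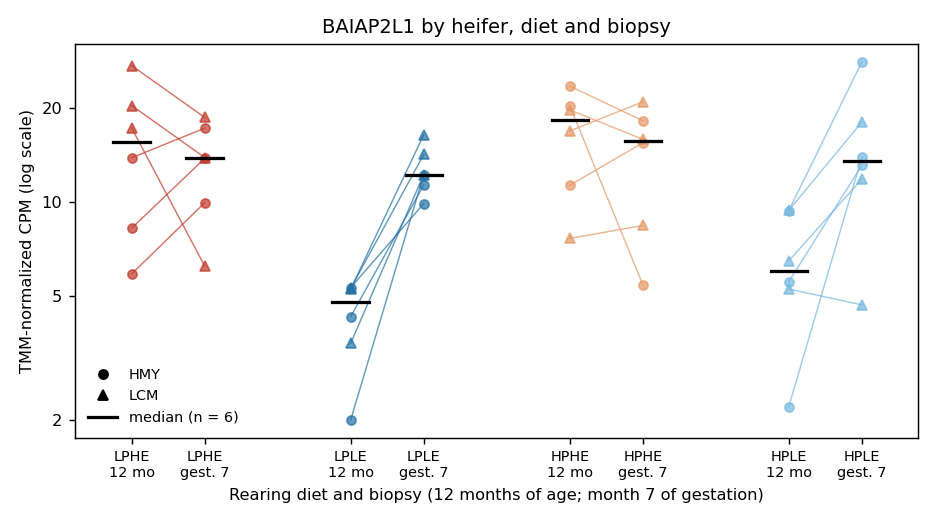
TMM-normalized CPM of BAIAP2L1 on a log scale for each heifer, by diet and biopsy, drawn as for SERPINA5. All 6 LPLE heifers and 5 of the 6 HPLE heifers rise between the biopsies, and the month 7 medians of the 4 diets lie between 12.3 and 15.7 CPM.

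In month 7 of gestation no difference between heifers of the former energy levels was detected for either gene. SERPINA5 averaged 10.3 ± 3.30 CPM in HE and 10.98 ± 3.47 CPM in LE heifers (SD, n = 12 each). The ranges overlapped almost fully, from 6.17 to 18.4 CPM in HE and from 5.71 to 16.7 CPM in LE heifers. The log2 fold change of HE-LE was -0.10 (SE 0.176, 95% interval -0.44 to 0.25, edgeR likelihood ratio test, FDR 0.853). BAIAP2L1 averaged 13.7 ± 5.09 CPM in HE and 13.8 ± 5.60 CPM in LE heifers (SD, n = 12 each), with ranges of 5.43 to 20.96 and 4.68 to 28.2 CPM. Its log2 fold change was -0.02 (SE 0.227, 95% interval -0.46 to 0.43, FDR 0.984). Permutation tests of log2 CPM over 12 against 12 heifers gave p = 0.632 for SERPINA5 and p = 0.926 for BAIAP2L1 (two-sided). Both intervals ended below the differences fitted for these genes at 12 months. Those differences have an SE of their own and may be inflated by the choice of the genes. Whether the energy difference changed between the biopsies was therefore not tested. In this comparison 3.74% of 13403 genes passed an FDR of 0.05, and neither of these genes was among them.

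Split by protein level, the SERPINA5 values in month 7 had opposite signs, neither of which was distinguishable from 0. LPHE heifers had 6.93, 9.46 and 11.01 CPM as lowest, median and highest levels and LPLE heifers 5.71, 13.2 and 16.7 CPM, a log2 fold change of -0.46 (SE 0.248, 95% interval -0.95 to 0.02). HPHE heifers had 6.17, 10.6 and 18.4 CPM and HPLE heifers 7.85, 8.86 and 12.8 CPM, a log2 fold change of 0.27 (SE 0.248, 95% interval -0.21 to 0.76). The HPHE-HPLE value was 0.07 without heifer 2, which had the highest level, and 0.41 without heifer 15, which had the lowest. Neither contrast passed an FDR of 0.1 in the likelihood ratio test (FDR 0.535 and 1) or in an exact permutation test over 6 against 6 heifers (p = 0.165 and 0.407, smallest possible p 0.00216). The direct test of the difference between the energy contrasts gave -0.74 on the log2 scale (SE 0.350, 95% interval -1.42 to -0.05, edgeR FDR 1). The interval, which is not adjusted for the number of genes, excluded 0. This exclusion depended on the fit and on single heifers. With all 48 samples in the fit the value was -0.74 (SE 0.503), and without heifer 2 it was -0.54 (SE 0.336). Intervals from these SE include 0. Without heifer 4 the value was -0.90 (SE 0.319), farther from 0. Ranked by the direct test with all heifers of month 7, 0.537% of genes stood ahead of SERPINA5. Before adjustment, 107 of 13403 genes lay under 0.05. The missing call therefore does not show that the energy contrasts were alike. Within LPLE the 3 LCM heifers had 15.3 to 16.7 CPM and the 3 HMY heifers 5.71 to 11.05 CPM in month 7. This split was not tested within the diet, and so few heifers can separate by chance. Over all diets the genetic groups gave no call for SERPINA5 in month 7 (edgeR likelihood ratio test, FDR 0.998).

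For BAIAP2L1, the LPHE heifers had 6.23, 13.8 and 18.7 CPM and the LPLE heifers 9.89, 12.3 and 16.4 CPM in month 7, a log2 fold change of 0.06 (SE 0.321, FDR 0.982). HPHE heifers had 5.43, 15.7 and 20.96 CPM and HPLE heifers 4.68, 13.5 and 28.2 CPM, with a log2 fold change of -0.09 (SE 0.322, edgeR FDR 1). The difference between these contrasts was 0.14 (SE 0.456, 95% interval -0.75 to 1.04, FDR 1). Of all genes, 1.05% were called in LPHE-LPLE, 0.948% in HPHE-HPLE and 0.00746% for the difference between them.

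**Figure D3:**
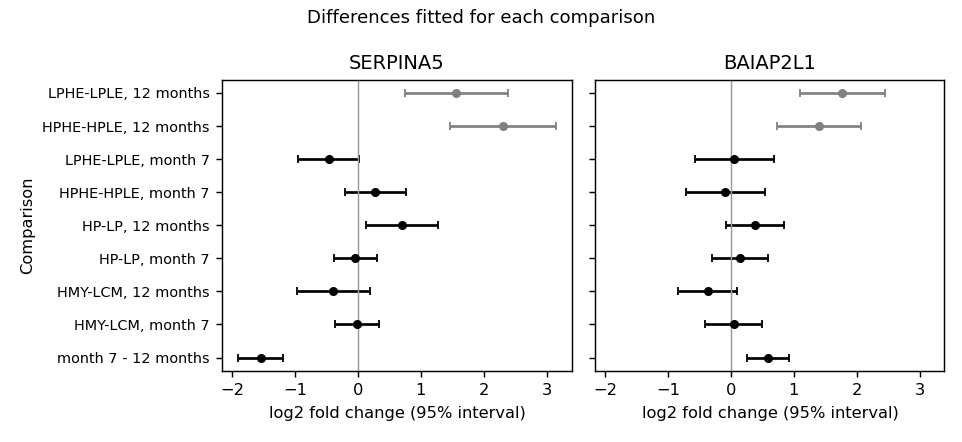
Fitted log2 fold changes with 95% intervals for both genes. The energy contrasts at 12 months, in grey, chose the genes and were not tested, while for the rest, in black, only the change between biopsies passed its FDR, at -1.55 for SERPINA5 and 0.59 for BAIAP2L1.

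Between the biopsies the genes moved in opposite directions. Averaged over the 4 diets, SERPINA5 was lower in month 7 by a log2 fold change of -1.55 (SE 0.182, edgeR likelihood ratio test, FDR 2.51e-15), which is 0.342 times its level at 12 months. It was lower in 22 of the 24 heifers. BAIAP2L1 was higher by 0.59 (SE 0.172, FDR 0.00273), in 17 of the 24 heifers. This fit treated the 48 samples as independent, although each heifer gave 2. With the heifer as a block the values were -1.40 (SE 0.166) for SERPINA5 and 0.60 (SE 0.148) for BAIAP2L1. Without that block, 37.4% of 13718 genes passed an FDR of 0.05 in this comparison, so being called is in itself common. The size of the SERPINA5 change was exceeded by 0.846% of the genes, and that of BAIAP2L1 by 11.1%. A permutation test that flipped the signs of the changes within heifers gave p = 2e-05 for SERPINA5 (0.00032 after Benjamini-Hochberg adjustment over 16 such tests). The same permutation test gave p = 0.0177 for BAIAP2L1, which did not hold after adjustment (0.141). Age, pregnancy and the change of diet all differ between the biopsies and cannot be told apart. The average of the diets at 12 months also holds the energy differences by which both genes were picked.

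By diet, the SERPINA5 decrease was largest where the gene had been high. Within heifers the mean log2 change was -2.48 ± 1.39 in HPHE and -2.00 ± 0.954 in LPHE heifers, all 12 of which fell (SD, n = 6 each). It was -0.82 ± 0.552 in HPLE heifers, again lower in all 6, and -0.16 ± 0.492 in LPLE heifers, where 4 were lower and 2 higher. The mean level in HPHE heifers at 12 months was 7.28 times that of month 7. For BAIAP2L1 the pattern was turned around. LPLE heifers rose by 1.51 ± 0.5002 and HPLE heifers by 1.11 ± 0.849 on the log2 scale, with 6 of 6 and 5 of 6 heifers higher in month 7. LPHE heifers changed by -0.13 ± 0.843 and HPHE heifers by -0.27 ± 0.823, with 3 heifers higher and 3 lower in each diet. The mean of LPLE heifers was 2.97 times, and that of HPLE heifers 2.34 times, the level at 12 months. SERPINA5 thus fell most in HE heifers, and BAIAP2L1 rose mainly in LE heifers. In month 7 no energy difference was detected for either gene, which does not show equal levels. The changes per diet were not tested, because the 12-month levels by energy were used to choose the genes.

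Protein level and genetic group gave no call for either gene at either biopsy. SERPINA5 was 0.70 higher on the log2 scale in HP than in LP heifers at 12 months (SE 0.290, 95% interval 0.13 to 1.27, edgeR FDR 1), where 0.0225% of genes were called. The unadjusted interval excluded 0, and 0.817% of genes stood ahead of SERPINA5 when ranked by this test. Before adjustment, 277 of 13339 genes lay under 0.05. The missing call therefore does not show equal levels in HP and LP heifers. Without heifer 19 the HP-LP difference of SERPINA5 was 0.33. A permutation test of log2 CPM with all heifers, 12 against 12, gave p = 0.275. It shuffled the protein labels over both energy levels, so the energy difference widens its spread and it cannot be set beside the fitted value. BAIAP2L1 differed by 0.38 (SE 0.239, FDR 1) between HP and LP heifers at 12 months. In month 7 the HP-LP differences were -0.04 (SE 0.176) and 0.15 (SE 0.227), both with an FDR of 1 against 0.0746% of genes called. Between genetic groups, HMY minus LCM, SERPINA5 differed by -0.39 (SE 0.296, FDR 0.696) and BAIAP2L1 by -0.37 (SE 0.241, FDR 0.647) at 12 months, with 0.0075% of genes called. The SERPINA5 value was -0.70 without heifer 19. In month 7 these differences were -0.02 (SE 0.177, FDR 0.998) and 0.04 (SE 0.229, FDR 0.997), with 0.0522% called.

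Heifers that were high for their diet and genetic group at 12 months were not detectably so in month 7. For SERPINA5 the correlation of these deviations over 24 heifers was r = -0.03 (permutation p = 0.904, Spearman's rho = -0.03, p = 0.886). For BAIAP2L1 it was r = 0.32 (permutation p = 0.131, rho = 0.39, p = 0.0594). Without the 2 heifers farthest from the median at 12 months the values of r were -0.01 and 0.29. Leaving out 1 heifer at a time gave r from 0.22 to 0.47 for BAIAP2L1, highest without heifer 2. Heifer 19 had the highest SERPINA5 deviation at 12 months, 2.05 in log2 CPM, and was still above its fitted value in month 7, by 0.37. Without heifer 19 the r of SERPINA5 was -0.19. A joint variation of both genes among heifers of a diet was not detected either, with r = 0.12 at 12 months (permutation p = 0.578, rho = 0.01, p = 0.972) and r = 0.23 in month 7 (p = 0.280, rho = 0.40, p = 0.0539). Without the 2 heifers farthest from the median for SERPINA5, r was 0.03 and 0.15. After Benjamini-Hochberg adjustment over these 4 relations the lowest permutation p was 0.523 for r and 0.119 for rho. Leaving out heifer 2, in which SERPINA5 was highest and BAIAP2L1 lowest among HPHE heifers of month 7, raised the last r to 0.51.

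**Figure D4:**
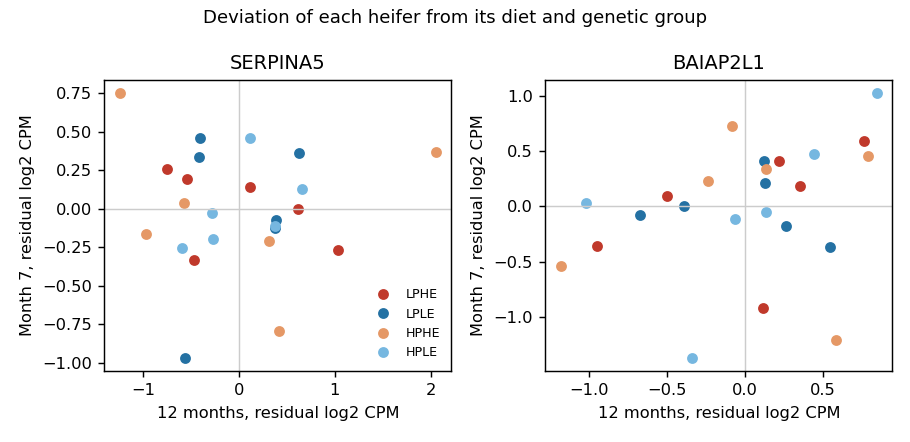
Deviation of each heifer from the value fitted for its diet and genetic group, in log2 CPM, at 12 months (x axis) and in month 7 (y axis). The 24 points scatter without a clear slope for SERPINA5 (r = -0.03) and with a weak one for BAIAP2L1 (r = 0.32).

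Different genes had the patterns most like each member, ranked by Pearson's r of log2 CPM over the 48 samples among 13717 genes. For SERPINA5 these were COII, the mitochondrially encoded subunit II of cytochrome c oxidase (r = 0.82), CISD1, an iron-sulfur protein of the outer mitochondrial membrane (r = 0.81), an unnamed gene (ENSBTAG00000043550, r = 0.79), PARM1 (r = 0.78) and KIAA1217 (r = 0.77). For BAIAP2L1 they were UNC79, part of a sodium leak channel complex (r = 0.84), the phospholipid-binding annexin ANXA5 (r = 0.81), leptin (LEP, r = 0.80), the growth factor FGF1 (r = 0.80) and SEC22B of vesicle transport (r = 0.79). The members themselves correlated with r = 0.22 over the same samples. The samples share diets, biopsies and heifers, so these values describe likeness only. After the means of diet, biopsy and genetic group were removed, the gene nearest to SERPINA5 was unnamed (ENSBTAG00000007700, r = 0.69). COII came next (r = 0.65), and PPP1R1A, an inhibitor of protein phosphatase 1 (r = 0.59), stood among the nearest 5 with 2 more unnamed genes (r = 0.60 and 0.59). UNC79 was again nearest to BAIAP2L1 (r = 0.81), followed by 2 unnamed genes (r = 0.79 and 0.78), SCP2, a lipid transfer protein (r = 0.76), and ANXA5 (r = 0.76).

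LEP encodes leptin, the hormone by which adipocytes report fat stores, and it was not among the nearest 5 genes to BAIAP2L1 once the group means were removed. At 12 months LEP averaged 525.7 ± 143 CPM in the LPHE diet against 175 ± 79.6 CPM in LPLE, and in month 7 these means were 514 ± 152 and 492 ± 107 CPM (SD, n = 6 each). In HPLE heifers its mean was 274 ± 199 CPM at 12 months and 594 ± 329 CPM in month 7, and in HPHE heifers it was 536 ± 219 and 387 ± 168 CPM. The LEP ranges of the HP diets in month 7 overlapped, from 108 to 616 CPM in HPHE and from 238 to 1166 CPM in HPLE heifers. BAIAP2L1 means in these groups were 14.1 CPM in HPHE and 14.96 CPM in HPLE. Whether the energy differences of the 2 genes were unlike was not tested.

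Both members were set beside the genes that the study lists for both energy contrasts, 17 in all. Of these, 16 passed the expression filter in month 7, and they were likewise chosen for their 12-month differences. In month 7, 5 of the 16 passed an FDR of 0.05 in HE-LE, each in the direction opposite to that at 12 months, beside 3.74% of all genes called in either direction. They were C19orf80 (also named ANGPTL8, an inhibitor of lipoprotein lipase activity), SOST, QPRT, PROSC and KLF11. C19orf80 stood at -2.73 on the log2 scale in month 7 (SE 0.546, edgeR FDR 0.000135), after 2.72 in LPHE-LPLE and 1.48 in HPHE-HPLE at 12 months. The transcription factor KLF11 went from -0.92 and -0.60 to 1.11 (SE 0.164, FDR 4.17e-08). SERPINA5 and BAIAP2L1 stood with S100B (-0.09, SE 0.182) and GSTM1 (-0.08, SE 0.162) among the values nearest 0, and BAIAP2L1 had the smallest of the 16. Whether the members differ from the reversed genes was not tested.

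**Figure D5:**
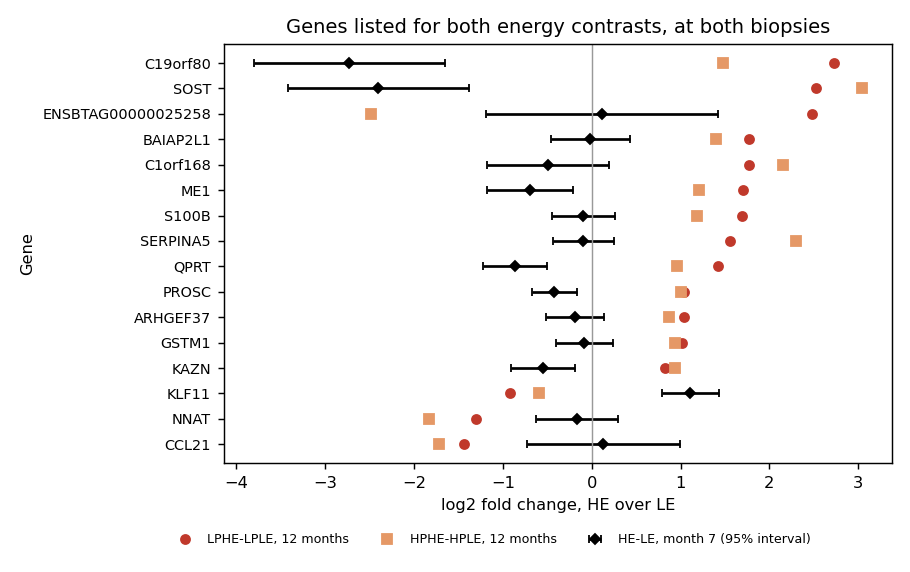
Log2 fold change of HE over LE heifers for the 16 measured genes that the study lists for both energy contrasts. Circles and squares are the 12-month contrasts that chose the genes, and diamonds with 95% intervals are HE-LE in month 7. The diamonds of SERPINA5 (-0.10) and BAIAP2L1 (-0.02) sit at the zero line, and those of C19orf80 and SOST lie at -2.73 and -2.40.

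Other genes of the pathways could be described only in part, since symbols were available only for genes in the study's tables. Of 26 listed serpins 2 had an identifier, and 0 of 23 genes of the protease systems that SERPINA5 inhibits did. For BAIAP2L1, 0 of 19 I-BAR and actin partners and 2 of 27 genes of insulin receptor signalling could be matched, so these lists could not be summarised. The 4 matched genes were selected by the study on the same 12-month samples for lower expression in LPHE than in LPLE heifers, with log2 fold changes of -0.69 for SERPINF1, -0.81 for SERPING1, -0.72 for IRS1 and -0.71 for GRB10. SERPINF1 encodes pigment epithelium-derived factor and SERPING1 the C1 inhibitor, and both thus lay opposite to SERPINA5 in that contrast. IRS1, the docking protein of the insulin receptor, and GRB10, an adaptor that restrains the receptor, lay opposite to BAIAP2L1 in LPHE-LPLE. In HPHE-HPLE at 12 months IRS1 stood at 0.06, on the side of BAIAP2L1, and GRB10 at -0.53. SERPINF1 stood at -0.15 and SERPING1 at -0.525 there. None of the 4 passed the FDR of 0.1 in HPHE-HPLE (edgeR FDR from 0.573 to 0.976). In month 7 none of the 4 passed the FDR of 0.05 in HE-LE (FDR from 0.170 to 0.888). Over time SERPING1 rose by 0.70 (SE 0.114, FDR 1.62e-08) and IRS1 by 0.47 (SE 0.0887, FDR 1.69e-06), while SERPINF1 and GRB10 had log2 fold changes of -0.05 and -0.06.

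Markers of cell types were covered no better, with 1 of 8 adipocyte, 5 of 8 skeletal muscle, 1 of 8 epithelial and 3 of 5 fibroblast markers and 0 of those for macrophages, lymphocytes, endothelium, blood and liver. CIDEC, a lipid droplet protein of adipocytes, was abundant throughout, at medians of 1253 to 2486 CPM per group, with 2035 and 2486 CPM in LPHE and HPHE and 1253 and 1754 CPM in LPLE and HPLE heifers at 12 months. The summed muscle markers, ACTA1, CKM, MYH2, MYH7 and MYLPF, ranged from 0.687 to 1.37 CPM in LPHE, from 1.13 to 60.5 CPM in LPLE, from 0.615 to 123 CPM in HPHE and from 0.422 to 117 CPM in HPLE heifers at 12 months. The summed COL1A1, COL1A2 and DCN had 12-month medians of 23065 CPM (LPHE), 48586 CPM (LPLE), 17778 CPM (HPHE) and 30778 CPM (HPLE). DSP, the epithelial marker, ranged from 0.162 to 68.9 CPM across the 12-month groups. Apart from DSP, which the study lists for a protein contrast, the matched markers carry a symbol because the study lists them for LPHE-LPLE on these samples. Their differences there, in either direction, follow from that choice and are no independent evidence. In the fit used here CIDEC passed the FDR of 0.1 in neither energy contrast (edgeR FDR 0.132 in LPHE-LPLE and 0.605 in HPHE-HPLE). COL1A1, COL1A2 and DCN did not pass in HPHE-HPLE (FDR 0.614, 0.573 and 0.585). The part of these markers in the 12-month levels of SERPINA5 and BAIAP2L1 was not tested.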

How the data were processed

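RNA from 48 subcutaneous adipose biopsies of 24 heifers was analysed as deposited raw counts per Ensembl gene, 1 file per sample. To make these counts the authors trimmed reads with Cutadapt (1.3), aligned them to UMD3.1 with TopHat (2.0.12) and counted them with HTSeq-count, without normalization. The annotation release and strand setting are not given in the sources used here. The 5 summary rows of the counting tool (38.8 to 61.0% of its total per sample, reads without a unique alignment included) were left out. Clade A serpins are similar in sequence, and reads that aligned to several places are not in the SERPINA5 counts. Groups came from the sample titles, and every sample was assigned. Samples were spread at random over sequencing lanes per the study, and the lane of each sample is not given in the sources used here.

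Genes that reached a CPM of 2 in 3 or more samples of a fit were kept, 13339 at 12 months, 13403 in month 7 and 13718 over both. A generalized linear model of diet and genetic group was fitted with glmFit of edgeR (4.0.16, R 4.3.3) with TMM normalization and tagwise dispersions shrunk to the trend, and each contrast was given a likelihood ratio test. The FDR threshold was 0.1 between 2 diets and for the difference of such contrasts, and 0.05 over all heifers. SE was derived from each log2 fold change and the square root of its likelihood ratio statistic. Single values were tested on log2 CPM with a pseudocount of 0.5, exactly or with 100000 permutations. Intervals use the normal distribution. The scripts were tested on simulated counts.

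Members and gene lists were chosen with earlier results of these data known. Named genes besides the members are the 5 most correlated genes by each measure and those members of listed families and pathways that had a symbol. The genes listed for both energy contrasts, leptin by group and the names of neighbouring genes were added after the values were seen. Symbols came from the study's tables (1003 of 1101 identifiers, with 2 genes of tables in its text), whose fold changes and FDR were not used. The RefSeq table holds no Ensembl identifiers for these genes. Both biopsies come from the same heifers, and the deviations of a heifer's biopsies from their group means correlated with a median r of 0.30 over genes (-0.06 to 0.58).

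As alternatives, DESeq2 (1.42.0), the quasi-likelihood F test of edgeR, RLE size factors, library size only, no filter, at least 10 counts in every sample, no genetic group, all 48 samples or only 12 in the fit, the other FDR threshold, each heifer left out, the heifer as a block and, added after the values were seen, dispersions from estimateDisp were tried.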

Additional observations from a re-analysis of the deposited data

Results flagged for a closer look

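SERPINA5 in HPHE heifers at 12 months had 1 heifer far from the others, number 19 with 228 CPM, and the next highest had 97.2 CPM. This gap was 0.637 of the range of the 6 heifers, above the limit of 0.625. On the log2 scale the gap was 0.372 of the range, below that limit. Chance gives about 1 such value in 20 groups of normally distributed values, and 16 groups were examined.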

How the results depend on the processing

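The change between biopsies stayed called for both genes under all 9 alternatives, with log2 fold changes from -1.56 to -1.40 for SERPINA5 and from 0.58 to 0.70 for BAIAP2L1, and in all 24 fits that left out a heifer. With the heifer as a replicate block, for which the pairing of the biopsies allows, the values were -1.40 and 0.60, with 6022 genes called in place of 5126. The block was fitted for the change between biopsies alone, where it changed neither call. No alternative brought either gene past its FDR in another tested comparison. With library size only, HE-LE of BAIAP2L1 in month 7 changed sign, to 0.026. Leaving out 1 heifer at a time gave 1.57 to 2.51 for SERPINA5 in HPHE-HPLE at 12 months, lowest without heifer 19. Values near 0 changed sign in some of these fits. In month 7, BAIAP2L1 ranged from -0.13 to 0.12 in HE-LE, from -0.091 to 0.21 in LPHE-LPLE, from -0.31 to 0.18 in HPHE-HPLE, from -0.12 to 0.35 for the difference between them and from -0.080 to 0.13 between genetic groups. SERPINA5 ranged from -0.13 to 0.033 for protein and from -0.11 to 0.078 between genetic groups. The correlation of biopsies ranged from -0.19 to 0.15 for SERPINA5, and that between the genes at 12 months from -0.073 to 0.22.

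Counts of called genes over all genes moved more. For LPHE-LPLE at 12 months, 944 genes became 1615 with DESeq2, 1525 with all 48 samples and 555 at an FDR of 0.05. For HPHE-HPLE at 12 months, 16 became 25 with DESeq2, 27 with all samples, 61 with only 12 samples and 9 at an FDR of 0.05. For HE-LE in month 7, 501 became 1151 with DESeq2, 326 with all samples, 801 with estimateDisp and 848 at an FDR of 0.1. For LPHE-LPLE in month 7, 141 became 423 with DESeq2, 71 without genetic group, 64 with all samples, 212 with only 12 samples and 58 at an FDR of 0.05. For HPHE-HPLE in month 7, 127 became 73 with all samples. The difference between these contrasts had 1 call, 4 without a filter and 0 with at least 10 counts (101 at an unadjusted p under 0.05). Protein at 12 months had 3 calls, 7 without a filter, 0 with at least 10 counts (233 unadjusted) and 8 at an FDR of 0.1. In month 7 it had 10, with 17 without a filter, 1 with at least 10 counts, 3 with DESeq2 and 3 with estimateDisp. Genetic group at 12 months had 1 call, 2 with DESeq2, 3 with all samples, 0 with estimateDisp (1465 unadjusted) and 4 at an FDR of 0.1. In month 7 it had 7, with 13 for library size only, 12 without a filter, 25 with DESeq2, 0 with all samples (744 unadjusted) and 24 at an FDR of 0.1. The quasi-likelihood F test of edgeR called 0 genes at 12 months in HPHE-HPLE, protein and genetic group (1165, 254 and 1501 at an unadjusted p under 0.05). In month 7 it called 0 in LPHE-LPLE, HPHE-HPLE, their difference, protein and genetic group (1792, 1216, 113, 595 and 1259 unadjusted). The cause of these shifts was not tested.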
